A study of Caenorhabditis elegans with 2 samples.

Results

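The 8 cct genes, cct-1 to cct-8, encode the subunits of CCT, the cytosolic chaperonin. They were taken by name from the Ensembl annotation of WBcel235 (build ce11), in which all 8 are protein-coding, out of 19985 protein-coding genes. Their binding by ZTF-7, a zinc-finger protein, was mapped in Caenorhabditis elegans by ChIP-seq, the sequencing of DNA fragments pulled down together with the tagged protein. Both biological replicates, of 1 group, were whole L4 larvae of strain OP332, mixed sex, with the genotype unc-119(tm4063) III; wgIs332. The integrated transgene wgIs332 supplies ZTF-7 tagged with eGFP, and whether the untagged gene was also present is not given in the labels. Whole animals were used, so the cells behind a region are not known. No control sample was analysed here and the read depth is unknown, so no comparison of conditions was possible.

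CCT, also called TRiC, is a pair of stacked rings, each built from all 8 subunits, that encloses unfolded proteins and uses ATP to fold them. Actin and tubulin are its best known clients, and the cofactor prefoldin hands them over. The subunits alpha to theta are encoded by cct-1 to cct-8 in that order. Many C. elegans messages receive a spliced leader by trans-splicing, so an annotated 5' end need not be where transcription starts.

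The authors' list of reproducible peaks (IDR, the irreproducible discovery rate) held 1311 peaks, and the pooled list and each replicate's list held 30000 regions. A region's signal is the peak caller's own value and compares only within a list, so rank 1 is the strongest region of a list. A gene was counted where a summit, the highest point of a region, lay within 1000 bp of its 5' end. The leading region of a gene is its strongest pooled region in that window. Where a gene has an IDR peak, the leading region is that peak.

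The DNA under the leading summits is shown first, because the positions and letters below refer to it. Each line holds the 60 bases on either side of the summit and the summit base itself. Capitals mark letters of the heat shock element, TTCNNGAA or GAANNTTC, or a word shared between members that is described further on. The first 4 lines are the members with an IDR peak, in order of signal.
cct-8, chrIV:1094297-1094417, plus strand: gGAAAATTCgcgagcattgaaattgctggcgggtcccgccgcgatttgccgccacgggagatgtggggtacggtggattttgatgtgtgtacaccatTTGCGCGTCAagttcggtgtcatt
cct-1, chrII:8185141-8185261, plus strand: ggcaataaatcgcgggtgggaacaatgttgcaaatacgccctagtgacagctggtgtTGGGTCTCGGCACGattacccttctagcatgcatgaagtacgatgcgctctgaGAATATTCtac
cct-6, chrIII:5855904-5856024, plus strand: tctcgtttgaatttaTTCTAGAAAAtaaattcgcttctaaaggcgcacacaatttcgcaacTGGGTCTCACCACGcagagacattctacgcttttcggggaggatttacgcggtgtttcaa
cct-5, chrIII:4508494-4508614, plus strand: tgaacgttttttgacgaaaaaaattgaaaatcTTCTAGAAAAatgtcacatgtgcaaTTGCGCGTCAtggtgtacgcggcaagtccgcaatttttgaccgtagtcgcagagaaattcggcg
cct-7, chrV:1871942-1872062, plus strand: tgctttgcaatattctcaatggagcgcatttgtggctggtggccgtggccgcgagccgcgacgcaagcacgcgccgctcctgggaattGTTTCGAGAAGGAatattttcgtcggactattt
cct-2, chrII:8927405-8927525, plus strand: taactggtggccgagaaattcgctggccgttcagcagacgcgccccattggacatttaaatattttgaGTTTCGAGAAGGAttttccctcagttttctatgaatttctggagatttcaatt
cct-4, chrII:8283358-8283478, plus strand: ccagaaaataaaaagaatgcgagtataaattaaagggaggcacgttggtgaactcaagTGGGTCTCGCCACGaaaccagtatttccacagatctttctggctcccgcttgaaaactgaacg
cct-3, chrII:2234284-2234404, plus strand: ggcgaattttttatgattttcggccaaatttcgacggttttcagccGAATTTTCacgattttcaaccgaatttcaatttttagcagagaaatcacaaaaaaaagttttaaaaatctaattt

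ZTF-7 peaks lay upstream of cct-8, cct-1, cct-6 and cct-5, and these peaks were strong in both replicates. An IDR summit was within 1000 bp of 4 of the 8 cct genes (50%), against 5.61% of all protein-coding genes. Each of the 8 had some pooled region in that window, which held for 40.2% of all protein-coding genes. The median best rank in the pooled list was 949 for the cct genes and 7759 for the 8033 protein-coding genes with a region. The members fall into a strong group of 4, cct-7 just below the list, and 3 with weak regions.

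The strongest was cct-8, the theta subunit gene on chromosome IV from 1087108 to 1093920. Its peak, from 1094278 to 1094450, had a signal of 146.4 and rank 102 in the IDR list. The overlapping region had a signal of 57.8 and rank 132 in replicate 1, and a signal of 83.0 and rank 113 in replicate 2. The 2 replicate summits lay 0 and 8 bp from the pooled summit, so the replicates placed this peak at nearly the same base. Only 81 nuclear IDR peaks had a higher signal.

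Next came cct-1, the alpha subunit gene on chromosome II from 8185443 to 8187601. Its peak, from 8185141 to 8185269, had a signal of 117.8 and rank 154. The overlapping region had a signal of 47.9 and rank 225 in replicate 1, and a signal of 67.5 and rank 174 in replicate 2. Both the cct-8 and cct-1 peaks were narrow in the IDR list, at 173 and 129 bp, against a median IDR width of 324 bp. In replicates 1 and 2 the overlapping regions were 131 and 84 bp wide at cct-8. At cct-1 they were 304 and 310 bp, the same as at cct-6, so its peak was narrow only in the pooled and IDR lists.

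The zeta gene cct-6 and the epsilon gene cct-5, both on chromosome III, from 5853530 to 5855687 and from 4499188 to 4508114, were close to each other in signal. The cct-6 peak, from 5855802 to 5856125, had a signal of 83.8 and rank 378. It had a signal of 33.2 and rank 597 in replicate 1, and a signal of 50.4 and rank 387 in replicate 2. The cct-5 peak, from 4508392 to 4508715, had a signal of 82.2 and rank 396. It had a signal of 27.9 and rank 880 in replicate 1, and a signal of 55.5 and rank 289 in replicate 2. The replicates put these genes in opposite order, so their order is within the replicate spread. The order of cct-8 before cct-1 was the same in both replicates, and both genes ranked ahead of cct-6 and cct-5 in each. All 4 signals were above the median of 66.0 over the 1289 nuclear IDR peaks.

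The eta gene cct-7, on chromosome V from 1872246 to 1875505, missed the IDR list narrowly. Its leading region, from 1871840 to 1872163, had a signal of 46.1 and pooled rank 1502, while the weakest IDR peak had a signal of 49.2. It had a signal of 21.5 and rank 1507 in replicate 1, and a signal of 22.6 and rank 3360 in replicate 2, where the summit lay 86 bp away from the pooled one. Its −log10 q was 2.08 in the pooled list, where the 4 members with an IDR peak stood at 2.11, the highest value among IDR peaks. In replicate 1 it was at that list's ceiling of 2.77, as were the 4 members with an IDR peak and also cct-4, at replicate 1 rank 4394. In replicate 2 the −log10 q of cct-7 was 1.15 against a ceiling of 1.98.

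The remaining members, all on chromosome II, had weak leading regions that only 1 replicate held. For the beta gene cct-2, from 8927741 to 8929815, the leading region had a signal of 22.4 and pooled rank 6276. Its signal was 17.8 and its rank 6153 in replicate 2, and nothing in the replicate 1 list overlapped it. For the delta gene cct-4, from 8283667 to 8285711, the leading region had a signal of 16.7 and pooled rank 10972. Its signal was 11.6 and its rank 4394 in replicate 1, and nothing in the replicate 2 list overlapped it. For the gamma gene cct-3, from 2233540 to 2243539, the leading region had a signal of 15.5 and pooled rank 12654. It lay in an intron 804 bp downstream of the 5' end, had a signal of 11.6 and rank 15523 in replicate 2, and was not overlapped in replicate 1. Replicate 2 and the pooled list both put cct-2 ahead of cct-3. The rank of the cct-4 leading region in replicate 1 has no counterpart for the leading regions of the other 2 genes. Its place among them thus rests on the pooled list alone.

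**Figure D1:**
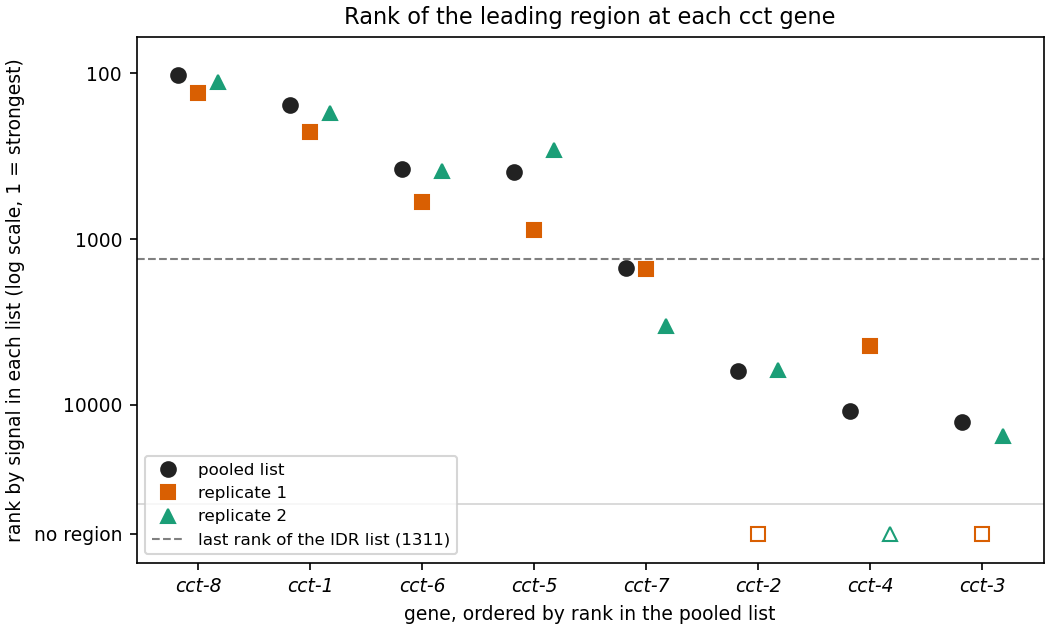
Rank by signal (log scale, strongest at the top) of the leading region of each cct gene in the pooled list, replicate 1 and replicate 2. Open symbols mark a replicate with no region overlapping the leading one, and the dashed line is rank 1311. In all 3 lists cct-8, cct-1, cct-6 and cct-5 sit above the line and cct-7 below it, and each of cct-2, cct-4 and cct-3 lacks 1 replicate.

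Each replicate alone picked out the same genes. Of the 1311 strongest regions of replicate 1, summits lay by 4 of the 8 cct genes, against 5.13% of all protein-coding genes. In replicate 2 the count was also 4 of 8, against 5.42%. The genes were cct-1, cct-5, cct-6 and cct-8 each time, and all 4 were by the strongest 1311 of both replicates, as were 2.88% of protein-coding genes.

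All 4 IDR summits were intergenic and upstream, between the cct gene and a coding gene on the other strand that points away from it. The summit was 437 bp from the 5' end for cct-8, 242 bp for cct-1, 277 bp for cct-6 and 440 bp for cct-5. Over the 1121 protein-coding genes with an IDR summit, the median distance was 252 bp and 88.0% of the strongest summits were upstream. The leading summits of cct-7, cct-4 and cct-2 were upstream as well, at 244, 249 and 276 bp. The cct-7 summit fell inside T10B5.13, a non-coding RNA gene whose 5' end was 22 bp away.

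In each IDR case the facing gene was nearer to the summit than the cct gene was. The 5' end nearest to the cct-1 summit, at 178 bp, was that of mig-5, which encodes a Dishevelled protein of Wnt signalling. The cct-6 summit lay 54 bp from alh-9, an aldehyde dehydrogenase gene. The cct-8 summit lay 184 bp from Y55F3AR.2, and the non-coding gene Y55F3AR.4 began 270 bp from it. The cct-5 summit lay 301 bp from F25F2.1. When a summit counted only for the coding 5' end closest to it, 0 of 8 cct genes had an IDR summit, against 4.15% of all protein-coding genes. The cct-7 and cct-4 summits were likewise nearer to a facing gene, at 195 bp from T10B5.4 and 210 bp from nst-1, a nucleostemin homologue. The lists do not tell which gene of a facing pair a summit belongs to.

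The gap to the facing coding 5' end was 621 bp for cct-8, 420 bp for cct-1, 331 bp for cct-6, 741 bp for cct-5, 439 bp for cct-7 and 459 bp for cct-4. For cct-2 and cct-3 it was 1190 and 1070 bp. A gap of at most 1000 bp was thus present at 6 of 8 cct genes (75%), against 17.7% of all protein-coding genes. Among genes with such a gap, 4 of 6 cct genes had an IDR summit, against 12.7% of the 3539 protein-coding genes. Among genes without one, 0 of 2 cct genes had an IDR summit, against 4.08% of 16446. This split was chosen after the positions were seen.

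**Figure D2:**
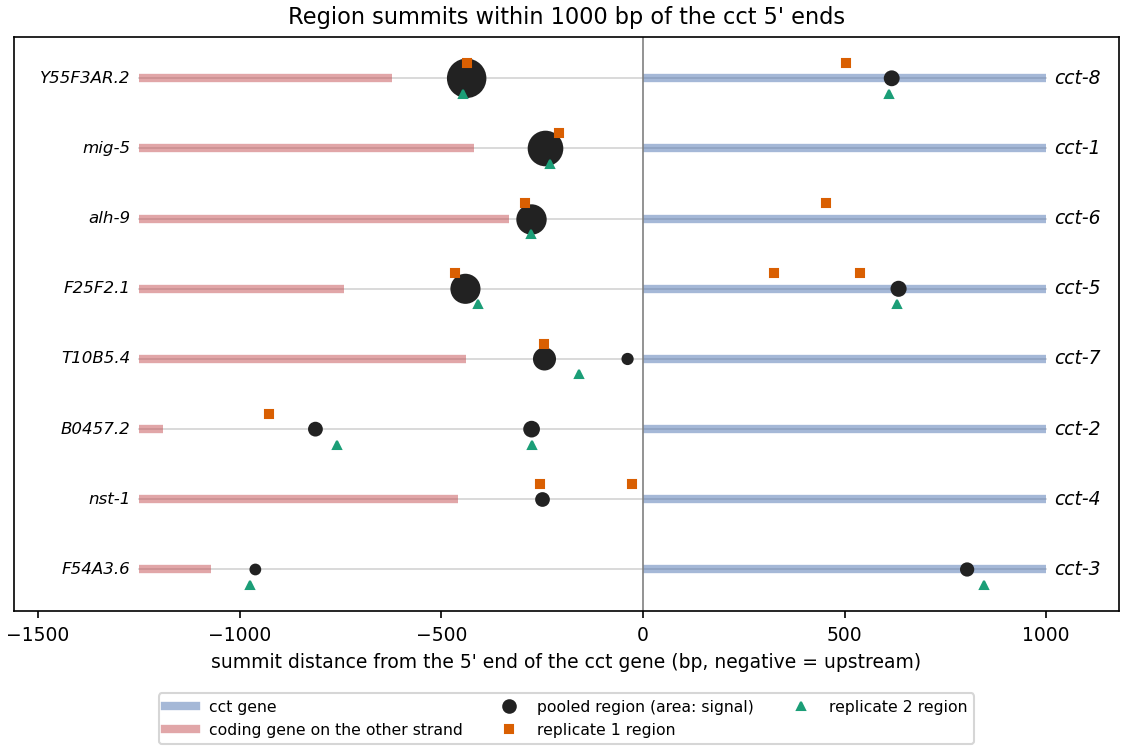
Summit distance from the 5' end of each cct gene in bp, with upstream to the left. Black circles are pooled regions with an area proportional to signal, squares are replicate 1 and triangles replicate 2 regions, and bars show the cct gene and the coding gene facing it. Non-coding genes are left out. The largest circles, at cct-8, cct-1, cct-6 and cct-5, lie in the gap between the bars. Only small circles are seen at cct-2 and cct-3, with gaps of 1190 and 1070 bp, and also at cct-4, with a gap of 459 bp. Further small circles at cct-8, cct-5 and cct-7 are weaker second regions of these genes.

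The letters at the summits were compared next, as a description of these windows. Heat shock elements, the sites of the stress factor HSF-1, are built from repeats of GAA and its reverse complement TTC. TTCNNGAA and GAANNTTC, which each read the same on both strands and can overlap, were searched in the 121 bases around each leading summit. TTCNNGAA was at 4 of 8 cct genes, cct-2, cct-5, cct-6 and cct-7, against 4.34% of the 1289 nuclear IDR summits. GAANNTTC was at 3 of 8, cct-1, cct-3 and cct-8, against 5.20%. Among nuclear pooled summits below the IDR list, the shares were 8.74% for TTCNNGAA and 9.24% for GAANNTTC. Counting either pattern, and the window of 121 bases, were choices made after the separate counts were seen. Either was then present at 7 of 8 cct genes, all but cct-4, against 8.38% of nuclear IDR summits and 16.1% of the 28688 nuclear pooled summits below the IDR list. In 101 bases the count was 5 of 8, without cct-1 and cct-8, against 6.67% of nuclear IDR summits, and in 151 bases it was again 7 of 8, against 11.3%. Summits below the list were not counted in windows of 101 and 151 bases. TTCNNGAA was at the same 4 genes in all 3 windows.

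The matches stood between 7 and 52 bp from the summit. In the cct-5 and cct-6 windows printed above the match was TTCTAGAA, 21 and 38 bp from the summit. In the cct-2 and cct-7 windows it was TTCGAGAA, 10 and 30 bp from the summit. In the promoter window of 250 bases before to 50 after the 5' end, 7 of 8 cct genes had either pattern, all but cct-2, against 32.5% of 19973 nuclear protein-coding genes. At cct-1, cct-6 and cct-7 the summit match itself lies in the promoter window, so the 2 counts partly rest on the same sites. A match says only that these letters are present.

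The other patterns were searched on both strands. The E-box CACGTG, the GC box GGGCGG and the repeat GAGAGA were in none of the 8 summit windows, and the TATA box TATAAA was in that of cct-4 alone. Among nuclear IDR summits the shares were 5.59% for the E-box, 5.74% for the GC box, 28.2% for the repeat and 8.15% for the TATA box. Among nuclear pooled summits below the IDR list they were 1.93%, 2.03%, 9.05% and 16.9%, in that order. The leading summits of cct-7, cct-2, cct-4 and cct-3 are of that kind. With 8 windows, counts of 0 or 1 cannot be told from shares of this size for the E-box, the GC box and the TATA box. Whether the 0 of 8 for the repeat differs from either of its shares was not tested. In the promoter windows the first 3 were at 0 of 8 cct genes, against 5.82% of nuclear protein-coding genes for the E-box, 7.83% for the GC box and 21.8% for the repeat. The TATA box was there at 2 of 8, cct-2 and cct-8, against 37.9%.

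Words shared by at least 3 members were searched first anywhere in the 121 bases. The longest had 8 bases, and there were 5 of them. The one in most members was AAATTCGC, at cct-2, cct-3, cct-6 and cct-8, which was in 1.09% of IDR summit windows, 0.84% of windows below the list and within 1000 bp of the 5' end of 11.7% of nuclear protein-coding genes. After the sequences were seen, the search was narrowed to words within 10 bp of the summit, and this left TGGGTCTC, another of the 5. AAATTCGC is not among the words in capitals above.

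That word sat at or beside the pooled summit in 3 members, where the narrowed search had looked for it. TGGGTCTC covered the leading summit of cct-1 and of cct-4 and began 1 bp from that of cct-6. The summits of replicates 1 and 2 lay 35 and 11 bp from the pooled one at cct-1, and 16 and 0 bp at cct-6. At cct-4 the replicate 1 summit lay 5 bp away. The word thus did not cover the replicate summits of cct-1 or the replicate 1 summit of cct-4. The lines above show that the match runs on, as TGGGTCTCNNCACG, in all 3. The genomic sites are chrII:8185198-8185211 for cct-1, chrII:8283416-8283429 for cct-4 and chrIII:5855965-5855978 for cct-6, all on the plus strand. A further copy lay at chrII:8927246-8927259 by cct-2, on the minus strand and 206 bp from its leading summit. The 14-letter pattern was thus within 1000 bp of the 5' end at 4 of 8 cct genes, against 1.84% of nuclear protein-coding genes. It was in 0.465% of IDR summit windows, 0.0732% of pooled summit windows below the IDR list and 0.275% of promoter windows. The cct windows are among those counted, with cct-1 and cct-6 among the 6 IDR summit windows that hold it. Since the pattern was read from the cct sequences, its count among them supports nothing.

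Words shared by pairs of members were listed over all 28 pairs of windows. The longest exact shared word had a median length of 8 bases and ranged from 7 to 13. The longest was GTTTCGAGAAGGA, common to cct-2 and cct-7, which contains the TTCNNGAA match of both. It was within 1000 bp of the 5' end of 8 of 19973 nuclear protein-coding genes, cct-2 and cct-7 among them. Among the 4 genes with an IDR peak, the longest shared words had 10 bases. They were TTCTAGAAAA, common to cct-5 and cct-6, and TTGCGCGTCA, common to cct-5 and cct-8. TTGCGCGTCA covered the pooled cct-5 summit and began 37 bp from that of cct-8. The cct-5 summits of replicates 1 and 2 lay 26 and 30 bp from the pooled one, outside the word. TTGCGCGTCA was in 0.543% of IDR summit windows and 0.153% of windows below the list. TTCTAGAAAA was in 0.233% of IDR summit windows and 0.495% of those below. The 3 IDR windows with TTCTAGAAAA include those of cct-5 and cct-6, and the 7 with TTGCGCGTCA include those of cct-5 and cct-8. Since these words were read from the cct sequences, their counts among the members support nothing.

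Base composition separated cct-3 from the others. The G and C share of the 121 bases was 54.5% at cct-8, 49.6% at cct-1, 43.0% at cct-6 and 42.1% at cct-5. It was 54.5% at cct-7, 44.6% at cct-4, 42.1% at cct-2 and 29.8% at cct-3. The median was 44.6% over nuclear IDR summits, 30.6% over nuclear pooled summits below the IDR list and 34.3% over promoter windows. The promoter windows of the cct genes themselves had 30.7% to 37.0%, so the higher share at 7 of the 8 was at the summits.

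**Figure D3:**
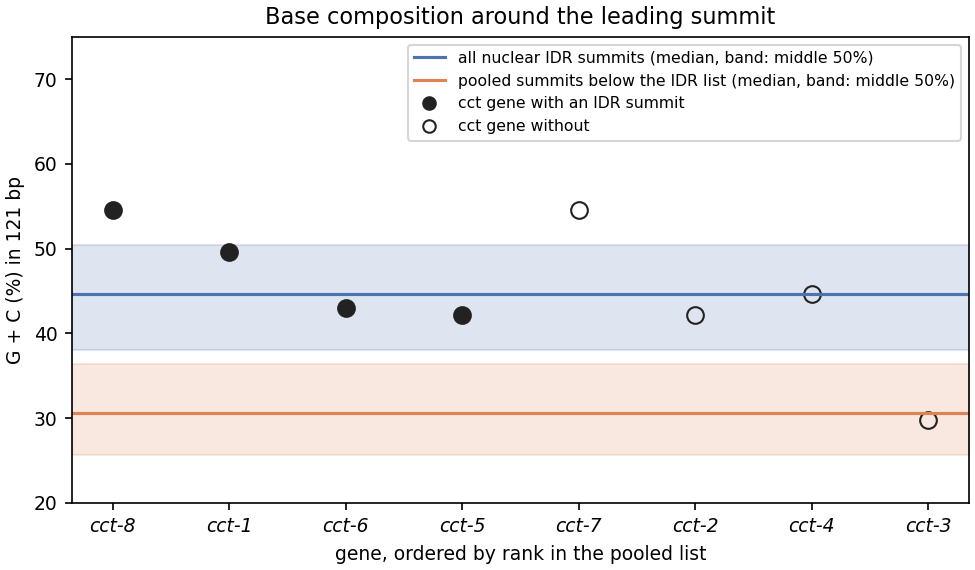
G and C share in the 121 bp around each leading summit, with filled circles for cct genes that have an IDR summit and open circles for the others. Lines are medians and bands the middle 50% of all nuclear IDR summits (44.6%) and of nuclear pooled summits below the IDR list (30.6%). Only cct-3, at 29.8%, lies in the lower band.

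Partners and clients of CCT were counted from fixed lists. Over all protein-coding genes, 5.61% had an IDR summit, and 4.15% when only the closest coding 5' end counted. A pooled region was present at 40.2%. Whether the lists differ from these shares was not tested. Of the 6 prefoldin genes, 1 had an IDR summit, pfd-6, with a signal of 77.9, rank 449 and a summit 81 bp upstream. Of 16 tubulin genes 2 had one (12.5%). The alpha tubulin gene tba-2 had a peak with a signal of 103.1, rank 207 and a summit 151 bp upstream. For the gamma tubulin gene tbg-1 the signal was 73.2 and the rank 516, with the summit 930 bp upstream. The best regions at tba-2 ranked 415 in replicate 1 and 183 in replicate 2, whereas the best regions at tbg-1 ranked 3631 in replicate 1 and 286 in replicate 2. None of the 5 actin genes had an IDR summit, although all 5 had a pooled region, with a median best rank of 7948. The mitochondrial chaperonin gene hsp-60 had a peak of signal 102.0 and rank 213 with its summit 614 bp upstream, and hsf-1 had none. When only the closest coding 5' end counted, 1 of 6 prefoldin genes and 1 of 16 tubulin genes had an IDR summit, and hsp-60 had none. The listed Hsp90 gene name daf-21 was not matched in the annotation. The gene annotated as hsp-90, which is counted with the hsp genes, had a peak of signal 72.1 and rank 531 that lay downstream by 868 bp, and best ranks of 721 in replicate 1 and 569 in replicate 2.

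The most like gene groups were counted in the same way. Of 51 hsp and dnj genes, which encode heat shock proteins and Hsp40 co-chaperones, 15 had an IDR summit (29.4%), and of 33 proteasome genes 7 did (21.2%). When only the closest coding 5' end counted, 0 of 8 cct genes, 7 of 51 hsp and dnj genes and 6 of 33 proteasome genes had one. A facing coding 5' end within 1000 bp was present at 75% of cct genes, 43.1% of hsp and dnj genes and 63.6% of proteasome genes. Over all protein-coding genes the shares were 5.61%, 4.15% and 17.7%, in that order. Whether these shares differ was not tested.
The hsp and dnj genes with an IDR summit were hsp-110, hsp-60, dnj-9, dnj-19, dnj-14, hsp-3, hsp-1, hsp-12.3, hsp-90, hsp-70, dnj-13, hsp-16.2, hsp-16.41, hsp-6 and dnj-5. Their signals ran from 147.0 at hsp-110 to 51.4 at dnj-5, and those of the cct genes from 146.4 to 82.2. The heat shock genes hsp-16.2 and hsp-16.41, which point away from each other, shared 1 peak. The proteasome genes were rpn-3, rpn-11, rpn-2, pbs-1, rpt-2, rpn-6.1 and pas-4, and rpn-3 shared the hsp-110 peak.

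**Figure D4:**
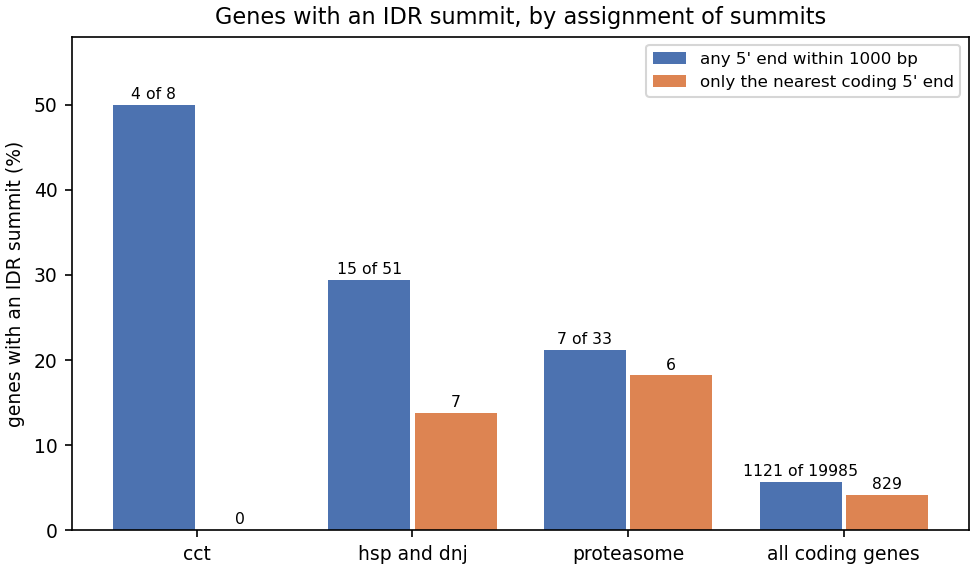
Percent of genes with an IDR summit within 1000 bp of the 5' end (left bars), and the same when a summit counts only for the coding 5' end closest to it (right bars). Bars are cct, hsp and dnj, proteasome and all protein-coding genes, with counts above them. The cct bar is 4 of 8 on the left and 0 on the right.

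Genes whose ranks were most like those of cct-8 were found by the distance between log10 ranks in the pooled and both replicate lists, over 5785 genes with a region in all 3. The closest was the facing gene Y55F3AR.2, by the same peak. F45E4.6 and plp-1, which encodes a Pur-alpha-like protein, shared a peak ranked 112, 130 and 101 in the pooled, replicate 1 and replicate 2 lists. H41C03.3 and ZK1248.17 shared one ranked 109, 135 and 97. All 5 genes thus had their best region in common with another gene.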

How the data were processed

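Peak lists of both replicates, of the pooled replicates and of the IDR step on build ce11 were used. Per the deposited notes, each region list was made from ChIP alignments and 1 further file that the control-normalised tracks share, and the IDR list from the pooled and replicate lists. No aligner, peak caller or IDR cutoff is named in the labels or notes. The labels give a size range of 150 to 350 bp. Signal values and −log10 q were deposited by the authors per region, and no p-value was given. The depth is unknown, so no interval was computed.

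Summits were counted from 1 and compared with gene 5' ends of Ensembl release 115. Its assembly, WBcel235, is ce11. Sequence came from the RefSeq copy of that assembly. Neighbouring genes exclude piRNA genes, and regions overlap where they share 1 bp. The lists on ce10 were not used, since no annotation of that build was at hand. No test was run: the members and lists were chosen with earlier results of these data known, and there was 1 group. The size of the summit window, the joint count of both heat shock patterns and the narrowed search for shared words were chosen after the sequences were seen. Summit assignment was checked on planted positions. Named genes were the members, genes by their regions, listed genes with an IDR summit, and the 5 genes of ranks closest to the strongest member. Protein sequences were not analysed here. Alternatives were windows of 500 and 2000 bp, nearest or any transcript 5' ends, interval overlap, the upper 50% of peaks, peaks among the 2622 strongest of both replicates, each replicate alone and all pooled regions. Python 3.11.15, numpy 2.4.6, pandas 2.3.3 and matplotlib 3.10.9 were used.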

Additional observations from a re-analysis of the deposited data

How the results depend on the processing

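The count of 4 cct genes with an IDR summit, cct-1, cct-5, cct-6 and cct-8, was the same with windows of 500 and 2000 bp, with any transcript start, with interval overlap, in the upper 50% of peaks and among peaks held by the 2622 strongest regions of both replicates. Without replicate 1 and without replicate 2 it was 4 each time. It became 0 with nearest coding 5' ends only, since every one of these summits is closer to a facing gene, and 8 with all pooled regions, a list of 30000 that reaches far below the IDR peaks. The count of 4 genes by the strongest regions of both replicates held with 500 and 2000 bp windows and with the 2622 strongest. No paired analysis was possible because there was 1 group. Without read counts, the lack of a replicate region over the leading region of cct-2, cct-3 or cct-4 does not show that binding was absent.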

Other observations

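Weaker regions also lay inside some cct genes. In cct-8 an intronic region 617 bp downstream of the 5' end had a signal of 19.9 and pooled rank 7936, with ranks of 7677 in replicate 1 and 14718 in replicate 2. In cct-5 an intronic region 634 bp downstream had a signal of 20.5 and pooled rank 7462, with ranks of 9568 in replicate 1 and 19661 in replicate 2. The peaks upstream of both genes were several times stronger in the same list. At cct-2 a second region, 812 bp upstream and 378 bp from B0457.2, had a signal of 16.9 and pooled rank 10694. Regions of rank 11436 in replicate 1 and 26046 in replicate 2 overlapped it.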
